A study of Mus musculus with 2 samples.

Results

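Glycolysis and hypoxia response genes were followed as a set of 35 genes, chosen by gene symbol in the feature table of the deposited count matrices, which list 32285 features. The set holds 3 transporters of glucose and lactate, 15 glycolytic enzymes, 3 regulators of glycolytic flux, 5 hypoxia factors and sensors and 9 further hypoxia targets. All 35 symbols were found in the table.

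Glycolysis splits glucose into pyruvate in the cytosol, and lactate dehydrogenase and lactate export let it run on without oxygen. When oxygen is low, prolyl hydroxylases no longer mark the HIF alpha subunits for breakdown, and these pair with ARNT to switch on genes of glycolysis, glucose uptake, pH control and mitochondrial turnover. Tendon is a sparsely vascularised tissue, and its repair tissue draws in fibroblasts, macrophages and new vessels.

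The measured tissue was the injury site of mouse tendon, taken 14 days after the operation from animals 12 weeks old and read by droplet-based single-cell RNA sequencing. The F592A library came from TrkA F592A mice and the WT library from TrkA WT mice, each a pool of 3 animals. TrkA is a receptor tyrosine kinase for nerve growth factor, carried by sensory nerves. The F592A point mutation makes its kinase sensitive to a bulky inhibitor, and the title of that sample reads INMPP1, while the WT sample is titled Control. The labels do not say if WT animals were given inhibitor, nor its dose or schedule, so the mutation, the inhibitor and the block of TrkA cannot be told apart. Transcript levels cannot check a point mutation. With 1 library for each genotype there is no replicate check and no test, and every interval here covers counting error only, not differences between mice or libraries.

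Cells were assigned to types by per-cell detection of marker genes, none of them one of the 35. The F592A library gave 8428 cells with a median of 17871 UMIs (counted transcript molecules) per cell, and the WT library 11216 cells with 15842 UMIs. Median mitochondrial shares were 3.802% in F592A cells and 4.624% in WT cells. Stromal cells, the fibroblast and tenocyte compartment, numbered 4632 in F592A and 6442 in WT. Macrophages numbered 1634 in F592A and 2468 in WT, blood endothelial cells 599 and 539, and mural cells, the pericytes and smooth muscle around vessels, 590 and 572. Smaller classes of lymphatic endothelial cells, neutrophils, dendritic cells, and T and NK cells held 78 to 182 cells a library. The stromal marker list summed to 77895 counts per 1000000 UMIs (CPM) in F592A stromal cells and 73279 CPM in WT stromal cells, against at most 6530 CPM in the other 3 large classes. The libraries shared 764 cell barcodes, 97 of them after filtering, and leaving those cells out changed no count of higher or lower members in the 4 large classes.

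The UMIs of a gene were summed over the cells of a type in a library and given as CPM, always out of the UMIs of that type in that library. A gene was taken as measured in a type with at least 100 UMIs over both libraries, and as higher or lower when its CPM differed at least 1.5-fold. In stromal cells 34 of the 35 genes were measured, and 6 of them passed that fold. Slc16a3, Gapdh, Egln3, Ankrd37 and Car9 were lower in F592A and Hk2 was higher. The 250 bases before the RefSeq transcription start of these 6 genes are shown because these genes passed that fold in stromal cells. The binding core of HIF can be looked up in these windows. Each runs 5′ to 3′ on the gene's own strand, and capitals mark the core ACGTG or its variant GCGTG on either strand, overlaps included.
Slc16a3: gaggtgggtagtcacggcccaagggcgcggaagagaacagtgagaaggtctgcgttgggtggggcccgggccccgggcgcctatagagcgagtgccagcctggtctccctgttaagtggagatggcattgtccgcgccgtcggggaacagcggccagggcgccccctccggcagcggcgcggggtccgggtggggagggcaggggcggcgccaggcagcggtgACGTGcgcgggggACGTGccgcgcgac
Hk2: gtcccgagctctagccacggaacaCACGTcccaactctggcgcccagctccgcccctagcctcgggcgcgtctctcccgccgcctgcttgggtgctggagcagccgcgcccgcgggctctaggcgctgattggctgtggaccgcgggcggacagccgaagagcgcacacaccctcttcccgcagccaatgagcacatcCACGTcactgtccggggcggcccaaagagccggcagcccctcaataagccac
Gapdh: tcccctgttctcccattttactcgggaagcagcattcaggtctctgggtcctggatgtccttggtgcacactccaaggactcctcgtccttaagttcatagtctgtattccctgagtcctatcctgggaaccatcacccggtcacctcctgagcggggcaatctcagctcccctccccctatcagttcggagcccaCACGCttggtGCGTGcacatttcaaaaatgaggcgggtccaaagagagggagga
Egln3: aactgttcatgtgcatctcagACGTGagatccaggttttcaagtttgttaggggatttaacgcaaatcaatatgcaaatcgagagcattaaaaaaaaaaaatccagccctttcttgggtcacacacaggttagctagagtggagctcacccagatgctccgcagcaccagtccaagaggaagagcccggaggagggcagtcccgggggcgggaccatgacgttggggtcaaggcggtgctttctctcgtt
Ankrd37: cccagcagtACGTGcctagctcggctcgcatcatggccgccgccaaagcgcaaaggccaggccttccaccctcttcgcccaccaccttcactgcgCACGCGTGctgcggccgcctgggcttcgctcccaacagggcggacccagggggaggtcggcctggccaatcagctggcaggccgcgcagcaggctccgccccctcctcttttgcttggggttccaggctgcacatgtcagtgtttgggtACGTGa
Car9: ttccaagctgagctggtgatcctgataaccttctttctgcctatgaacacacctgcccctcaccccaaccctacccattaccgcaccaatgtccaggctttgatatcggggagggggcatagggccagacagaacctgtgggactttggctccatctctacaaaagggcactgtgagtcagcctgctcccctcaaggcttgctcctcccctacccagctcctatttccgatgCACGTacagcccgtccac

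The windows lie in GRCm38.p6, the build of the RefSeq table, at chr11:120948817-120949066 on the plus strand, chr6:82774455-82774704 on the minus strand, chr6:125165774-125166023 on the minus strand, chr12:54203875-54204124 on the minus strand, chr8:45999851-46000100 on the minus strand and chr4:43506776-43507025 on the plus strand. Slc16a3 and Hk2 each held 2 ACGTG cores, and Egln3 and Car9 held 1. Ankrd37 held 2 ACGTG and 2 GCGTG cores, and Gapdh held 2 GCGTG cores and no ACGTG. The core therefore stood both in the windows of genes lower in F592A and in that of Hk2, which was higher. The windows of Slc16a3, Gapdh and Ankrd37 lie wholly inside the span of the gene in a second annotation, GENCODE. For these genes that annotation starts further upstream. Of the 31 members with an entry in the table, 54.8% had ACGTG in at least 1 of their windows. The share was 24.8% of the 10557 listed genes that were measured in stromal cells, and 18.5% of all 27025 genes listed. Counted by window, 43.5% of the 46 windows of these genes had it, against 21.2% of windows of genes measured in stromal cells. For GCGTG the shares lay closer together, at 64.5% of the 31 genes and 49.6% of genes measured in stromal cells, or 52.2% and 43.7% of windows. A match in these windows says only that the letters are there.

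In stromal cells the glycolytic enzymes were lower in F592A almost along the whole pathway. The 15 enzymes summed to 2511 CPM in F592A stromal cells, against 3455 CPM in WT stromal cells, a log2 ratio of -0.46 (95% interval -0.47 to -0.45). The median log2 ratio was -0.36 over the 34 measured members and -0.07 over the 13848 genes measured in stromal cells. Of the 34, 5 were at least 1.5-fold lower in F592A, against 4.61% of genes measured in stromal cells, and 1 was at least 1.5-fold higher, against 3.37%. Over all measured stromal genes 639 were lower and 466 higher, and with trimmed-mean (TMM) scaling 494 were lower and 581 higher. The counting interval of the log2 ratio lay below 0 for 25 of the 34, against 42.6% of measured genes, and above 0 for 3, against 20.3%. Among abundant genes, with a mean of at least 50 CPM, it lay below 0 for 16 of 18 members and for 64.4% of all such genes, and above 0 for 2 members and 25.5% of such genes, so small deficits in F592A were common among abundant genes in general.

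**Figure D1:**
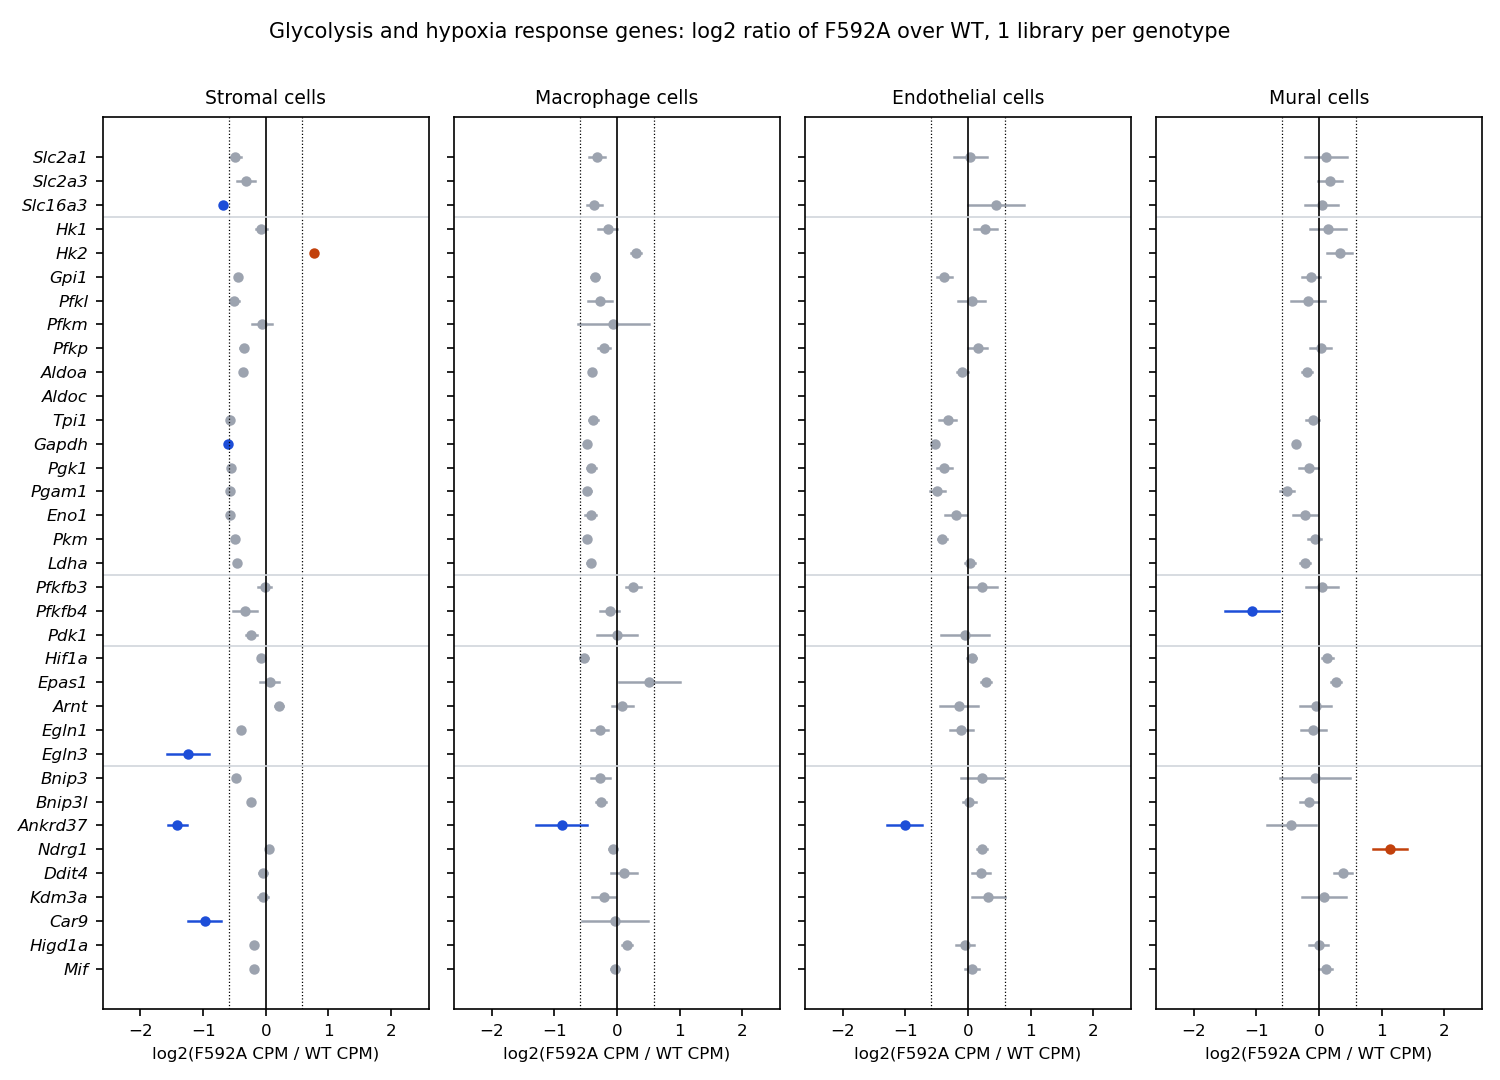
The log2 ratio of CPM in F592A over WT (x axis) is plotted for each gene (y axis, grouped as transport, glycolytic enzymes, flux regulators, hypoxia factors and sensors, and hypoxia targets) in 4 cell types, with points for the ratio, bars for the 95% counting interval and dotted lines at 1.5-fold. Orange points are at least 1.5-fold higher in F592A, blue points at least 1.5-fold lower, grey points neither, and genes under 100 UMIs have no point. Hk2 stands to the right at 0.77 in stromal cells while the enzymes from Tpi1 to Ldha form a column between -0.45 and -0.61.

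Entry of glucose and its priming were split. Slc2a1, the widely expressed glucose transporter GLUT1, measured 15.5 CPM in F592A stromal cells and 21.6 CPM in WT, and Slc2a3, the high-affinity transporter GLUT3, 5.21 and 6.498 CPM. Both were lower in F592A beyond counting error, by less than 1.5-fold. Hexokinases trap glucose in the cell by adding a phosphate. Hk2, the inducible hexokinase, stood at 170.6 CPM in F592A stromal cells, against 99.8 CPM in WT stromal cells, a log2 ratio of 0.77 (0.74 to 0.80). Hk1, the constitutive form, stood at 15.4 CPM in F592A and 16.2 CPM in WT, within counting error. Hk2 was the 1 of the 14 measured enzyme genes whose interval lay above 0 in stromal cells.

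Most genes of the next steps were lower by less than 1.5-fold. Gpi1, which turns glucose phosphate into fructose phosphate, had 98.5 CPM in F592A and 133.5 CPM in WT stromal cells. Among the phosphofructokinases, which set the pace of the pathway, Pfkl stood at 18.1 CPM in F592A and 25.7 CPM in WT and Pfkp at 32.4 and 41.4 CPM. Pfkm, the muscle form, stood at 4.92 CPM in F592A and 5.12 CPM in WT, with an interval that included 0. Aldolase splits the 6-carbon sugar, and Aldoa measured 267 CPM in F592A and 343 CPM in WT. Aldoc, the brain form, reached only 14 UMIs in F592A and 48 UMIs in WT and was not measured.

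The later steps, where ATP is gained, had log2 ratios close to each other. Tpi1, which interconverts the triose phosphates, stood at 163 CPM in F592A stromal cells and 241 CPM in WT. Gapdh, the dehydrogenase that oxidises the triose phosphate, stood at 680 CPM in F592A and 1036 CPM in WT, a log2 ratio of -0.61 (-0.62 to -0.59). Pgk1, the ATP-forming kinase, stood at 148 CPM in F592A and 217 CPM in WT. These enzymes had log2 ratios of -0.57, -0.61 and -0.55. Pgam1, the mutase that follows, stood at 198.5 CPM in F592A and 295 CPM in WT, Eno1, the main enolase, at 81.8 and 121 CPM, and Pkm, the pyruvate kinase, at 337 and 475 CPM. Ldha, which makes lactate from pyruvate, stood at 296 CPM in F592A and 405 CPM in WT. The 4 had log2 ratios of -0.57, -0.56, -0.50 and -0.45. Several of these genes, Gapdh above all, have processed pseudogenes, and the sources used here do not say how reads that match several places were counted. Gapdh is the closest of the 5 lower genes to the 1.5-fold line, and its log2 ratio was -0.53 under TMM scaling and under median-of-ratios scaling, inside that line.

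The gene for the lactate exporter was lower too. Slc16a3, which encodes MCT4, stood at 43.2 CPM in F592A stromal cells, against 69.4 CPM in WT stromal cells, a log2 ratio of -0.68 (-0.73 to -0.63). Of the flux regulators, Pfkfb3, the kinase that makes the activator of phosphofructokinase, was level at 11.9 CPM in F592A and 12.1 CPM in WT. Its relative Pfkfb4 stood at 3.07 CPM in F592A and 3.87 CPM in WT. Pdk1, the kinase that keeps pyruvate out of the mitochondrial citrate cycle by inhibiting pyruvate dehydrogenase, stood at 14.4 CPM in F592A and 17.0 CPM in WT.

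The HIF subunits themselves were nearly level in stromal cells, while several of their classic targets were lower in F592A. Hif1a stood at 328 CPM in F592A and 346 CPM in WT, a log2 ratio of -0.08, close to the median of all measured genes. Epas1, which encodes HIF-2 alpha, stood at 5.46 CPM in F592A and 5.22 CPM in WT, within counting error. Arnt, the shared partner, stood at 34.8 CPM in F592A and 30.2 CPM in WT, a log2 ratio of 0.21 (0.15 to 0.27). HIF-1 alpha is controlled mainly as a protein, which these data do not measure.

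Both prolyl hydroxylase genes of the set, which act as oxygen sensors, were lower. Egln1 stood at 76.1 CPM in F592A stromal cells and 100.0 CPM in WT. Egln3, itself a strongly induced HIF target, stood at 0.833 CPM (100 UMIs) in F592A and 1.97 CPM (300 UMIs) in WT, a log2 ratio of -1.24 (-1.58 to -0.91). Egln3 rested on few molecules: after each cell was thinned to 2000 UMIs it kept 12 UMIs in F592A and 13 UMIs in WT, and its log2 ratio was then 0.35.

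Ankrd37, a small ankyrin-repeat gene known as a sensitive HIF target, had the lowest log2 ratio of the measured members. It stood at 4.07 CPM (488 UMIs) in F592A stromal cells and 10.8 CPM (1647 UMIs) in WT, a log2 ratio of -1.41 (-1.56 to -1.27). Car9, a carbonic anhydrase that handles acid outside the cell, stood at 1.42 CPM (170 UMIs) in F592A and 2.77 CPM (422 UMIs) in WT, a log2 ratio of -0.97 (-1.23 to -0.71). Both mitophagy receptors were lower by less: Bnip3 stood at 45.1 CPM in F592A and 62.7 CPM in WT, and Bnip3l at 88.9 and 104 CPM. Other hypoxia targets were level or close to it. Ndrg1, a stress-responsive gene, stood at 183 CPM in F592A and 177 CPM in WT, Ddit4, an inhibitor of mTORC1, at 27.9 and 28.9 CPM, and Kdm3a, a histone demethylase, at 18.6 and 19.1 CPM. Higd1a, a mitochondrial protein, stood at 242 CPM in F592A and 275 CPM in WT, and the cytokine gene Mif at 305 and 348 CPM. Among Egln3 and the further hypoxia targets of the set, Ankrd37, Car9 and Egln3 were at least 1.5-fold lower, Egln3 not after thinning. Ndrg1, Ddit4 and Kdm3a lay within 0.05 of 0 on the log2 scale. Hk2, counted here with the enzymes, and Adm, a hypoxia gene outside the set, were at least 1.5-fold higher.

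The stromal class was divided by markers into tenocyte-like cells (1682 in F592A and 2000 in WT), fibrochondrocyte-like cells (496 and 966), adventitial-like fibroblasts (944 and 1421) and the others (1510 and 2055). The 15 enzymes were lower in F592A in each of these, by a log2 ratio of -0.44 in tenocyte-like, -0.43 in fibrochondrocyte-like, -0.52 in adventitial-like and -0.46 in the other stromal cells. In both libraries the enzymes summed highest in fibrochondrocyte-like cells, at 3089 CPM in F592A and 4163 CPM in WT, and lowest in adventitial-like cells, at 2141 and 3067 CPM. In adventitial-like cells 10 of 32 measured members were at least 1.5-fold lower in F592A, against 9.92% of measured genes, so more genes of any kind were lower there as well. The count was 4 of 34 in tenocyte-like cells, against 2.51%, 5 of 33 in fibrochondrocyte-like cells, against 3.04%, and 6 of 32 in the other stromal cells, against 6.81%.

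Hk2 was higher in F592A in each state. Adventitial-like cells held 229.95 CPM in F592A and 125 CPM in WT, and the other stromal cells 239.8 and 125 CPM. Tenocyte-like cells held 113 CPM in F592A and 74.6 CPM in WT, and fibrochondrocyte-like cells 122 and 75.6 CPM. Its log2 ratio ranged from 0.60 to 0.94 over the 4 states. In each state the 1 member at least 1.5-fold higher in F592A was Hk2, where 2.18% of measured genes passed that mark in tenocyte-like, 2.64% in fibrochondrocyte-like, 3.48% in adventitial-like and 3.77% in the other stromal cells.

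Ankrd37 and Slc16a3 were lower in all 4 states and most abundant in fibrochondrocyte-like cells in both libraries. In fibrochondrocyte-like cells Ankrd37 stood at 5.19 CPM in F592A and 17.9 CPM in WT, a log2 ratio of -1.79, and Slc16a3 at 65.9 and 106 CPM, a log2 ratio of -0.69. In adventitial-like cells Ankrd37 stood at 3.14 CPM in F592A and 7.91 CPM in WT, and Slc16a3 at 27.7 and 51.1 CPM. Car9 was most abundant in tenocyte-like cells, at 2.32 CPM in F592A and 4.82 CPM in WT, and fibrochondrocyte-like cells, at 2.16 and 3.88 CPM; adventitial-like cells held 0.0871 CPM (2 UMIs) and 0.297 CPM (10 UMIs). Gapdh was at least 1.5-fold lower in adventitial-like cells, at 534 CPM in F592A and 881 CPM in WT, and in the other stromal cells, at 589.9 and 965 CPM, but not in tenocyte-like or fibrochondrocyte-like cells, with log2 ratios of -0.54 and -0.49. Hif1a had no common direction, with log2 ratios of -0.13, 0.03, 0.15 and -0.18 in tenocyte-like, fibrochondrocyte-like, adventitial-like and other stromal cells.

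**Figure D2:**
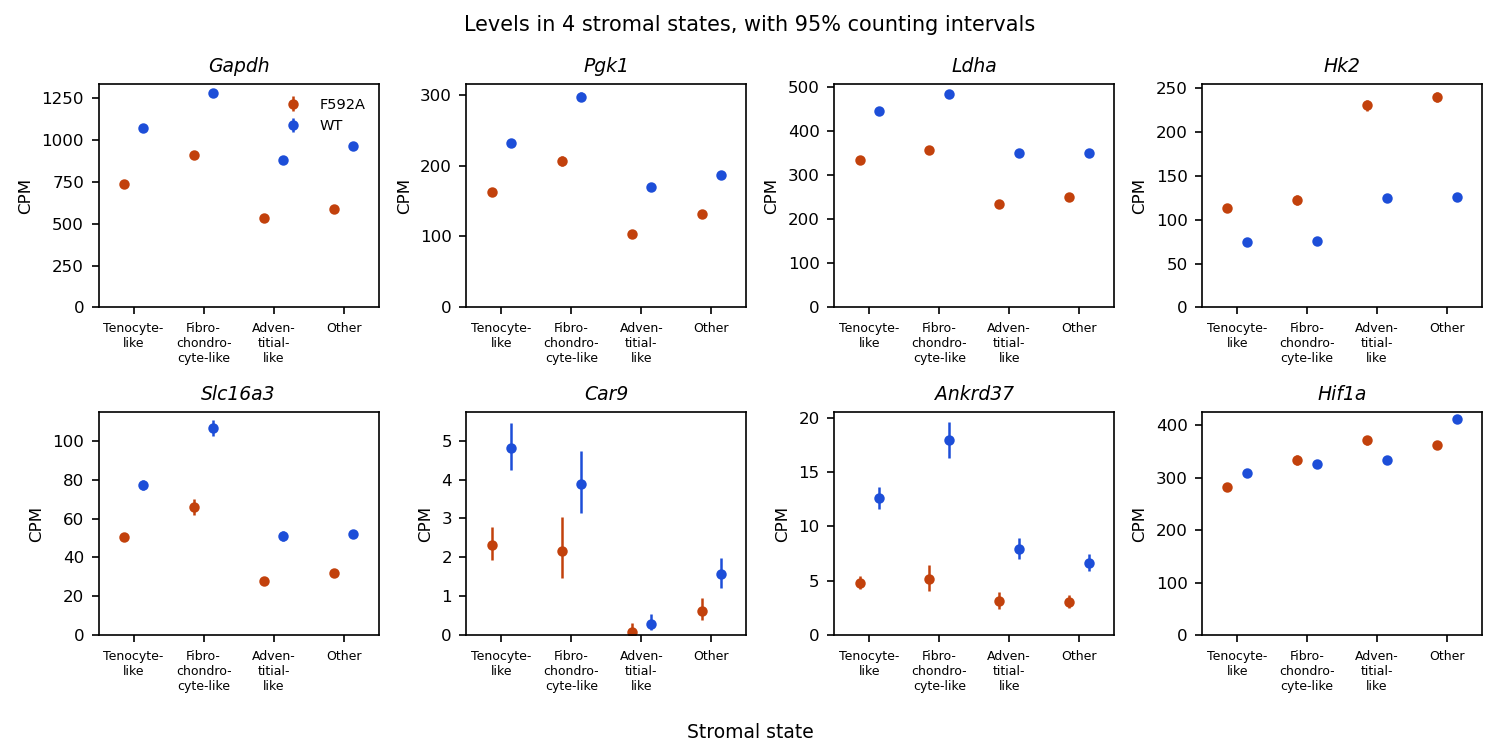
CPM of 8 genes (y axes, each from 0) in 4 stromal states (x axis), with F592A in orange left of WT in blue and bars for the 95% counting interval. Gapdh, Pgk1, Ldha, Slc16a3 and Ankrd37 lie lower in F592A in each state, Hk2 lies higher in each, and Hif1a lies on either side.

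Other measures moved with the stromal result. Cycling cells made up 125 of the F592A stromal cells and 344 of the WT stromal cells, and the cycling marker list summed to 102 CPM in F592A and 229.7 CPM in WT. Without cycling cells the enzyme sum kept a log2 ratio of -0.45, with 5 lower members, against 3.75% of genes measured there, and 1 higher member, against 3.23%. All 8 macrophage markers were detected in stromal cells, summing to 33.8 CPM in F592A and 54.4 CPM in WT, and all 6 neutrophil markers, summing to 8.57 and 17.98 CPM. Stromal cells of F592A had a median of 24538 UMIs and 3.96% mitochondrial UMIs, against 22211 UMIs and 4.77% in WT. Among cells with at most 5% mitochondrial UMIs the enzyme log2 ratio was -0.52 and 12 members were at least 1.5-fold lower, against 5.25% of genes measured in those cells. The part of these markers and of depth in the result was not tested.

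The difference was also read within clusters. Both libraries were clustered together without the 35 genes, which gave 23 clusters with at least 50 cells in each library. The enzyme sum was lower in F592A in 23 of the 23, by a log2 ratio between -0.56 and -0.02, and the interval lay below 0 in 21. Among the 9 stromal clusters the median log2 ratio was -0.36, and 6 of the 9 had a smaller deficit than the stromal class as a whole at -0.46. The widest gap was in a stromal cluster led by Acan, Tnn and Hapln1, with 3671 CPM in F592A (370 cells) and 5414 CPM in WT (621 cells). The mix of stromal cells differed between libraries: a cluster led by Sfrp4 and Igf2 held 1011 F592A and 613 WT cells, one led by Efemp1 and Cd55 held 198 and 748, and one led by Lrrc15 and Postn held 188 and 617. Hk2 was measured in 17 clusters and was higher in F592A in 17 of them, with log2 ratios of 0.08 to 0.93. Among the 9 stromal clusters its median log2 ratio was 0.54, below the 0.77 of the whole class, and 3 of the 9 passed 1.5-fold. In the Sfrp4 cluster, which held more F592A than WT cells, Hk2 stood at 309 CPM in F592A and 162 CPM in WT, the highest F592A value of the 9 and the second highest WT value. Ankrd37 was measured in 11 clusters and was lower in 11. Slc16a3 was lower in all 9 stromal clusters, by a log2 ratio between -0.91 and -0.08. Its median there was -0.38, a smaller deficit than the -0.68 of the whole class, and 3 of the 9 passed 1.5-fold. For Gapdh the stromal median was -0.495, and 2 of the 9 passed 1.5-fold. Gapdh was lower in 22 of 23 clusters. The exception was a small unnamed cluster whose leading genes include Acta1 and Krt14, where Gapdh stood at 616 CPM in F592A and 542 CPM in WT, and Aldoa at 399.9 and 232.5 CPM.

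**Figure D3:**
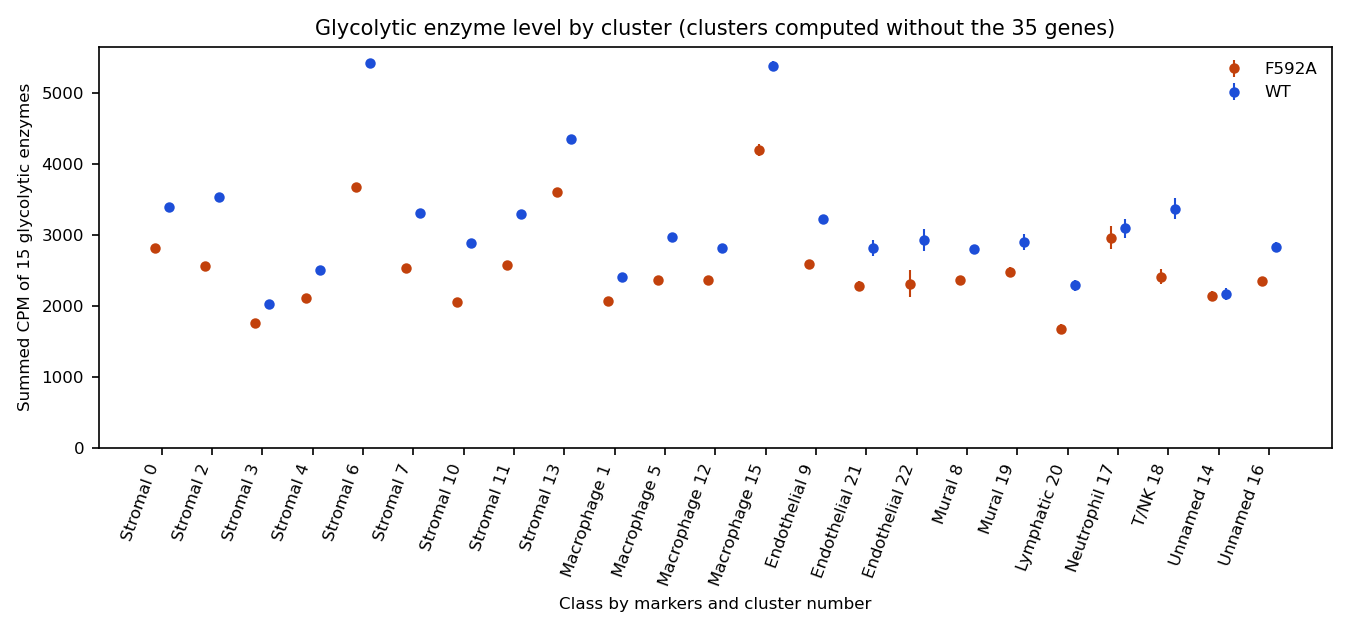
Summed CPM of the 15 glycolytic enzymes (y axis, from 0) in 23 clusters computed without the 35 genes (x axis, by marker class and cluster number), with F592A in orange left of WT in blue and bars for the 95% counting interval. The 23 clusters all lie lower in F592A, and the interval of the log2 ratio includes 0 in neutrophil cluster 17 and in unnamed cluster 14.

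Per cell, both the middle and the upper end of the distribution were lower in F592A. When every stromal cell was thinned to 2000 UMIs, which left out 47 shallower F592A cells and 113 WT cells, the median cell held 4 enzyme UMIs in F592A and 5 in WT, and the 90th percentile was 8 in F592A and 12 in WT. At least 10 enzyme UMIs were found in 6.83% of F592A stromal cells and 17.2% of WT stromal cells. Without thinning, the shares were 94.0% in F592A and 94.6% in WT, and the medians 48 and 59 UMIs. In macrophages the thinned medians were likewise 4 in F592A and 5 in WT, with at least 10 UMIs in 5.85% and 10.7% of cells; without thinning the medians were 24 and 23 UMIs and the shares 88.1% and 87.8%.

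**Figure D4:**
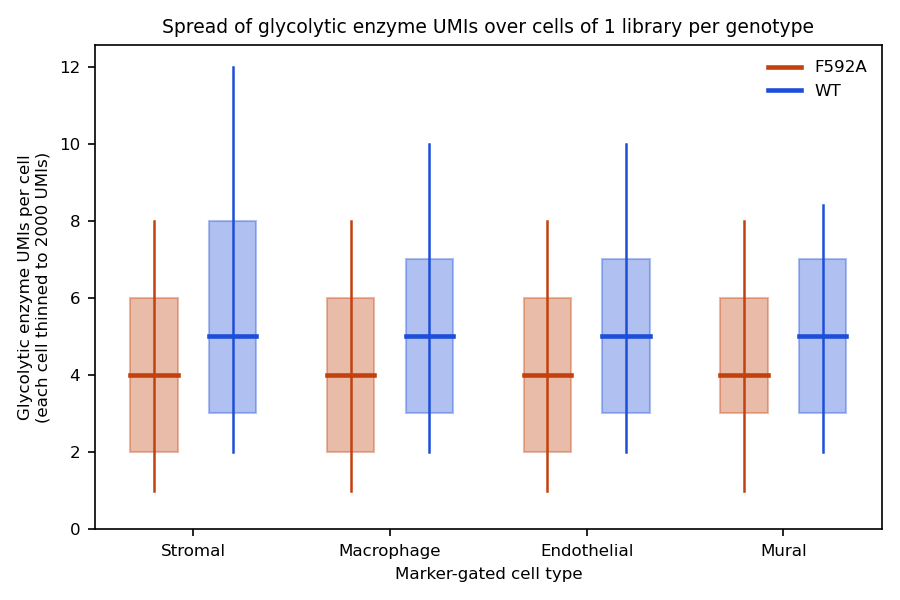
Glycolytic enzyme UMIs per cell after thinning to 2000 UMIs (y axis, from 0) in 4 cell types (x axis), with F592A in orange left of WT in blue. Boxes span the middle quartiles, thick lines mark the median and thin lines run from the 10th to the 90th percentile of cells of 1 library, which are not replicates; each median is 4 in F592A and 5 in WT.

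In macrophages the enzymes were also lower in F592A, at 2285 CPM against 3013 CPM in WT, a log2 ratio of -0.40 (-0.42 to -0.38). In the 4 macrophage clusters with at least 50 cells in both libraries it was -0.36 to -0.22, so 4 of 4 had a smaller deficit than the whole class. The cluster with Mmp12 and Gpnmb, with the highest enzyme sum of the 4, held 134 F592A and 266 WT cells. No single enzyme differed by 1.5-fold. Of 32 measured members 1 was at least 1.5-fold lower, against 4.02% of measured genes, and 0 were at least 1.5-fold higher, against 1.83%. Over all measured macrophage genes 402 were lower and 183 higher, and with TMM scaling 250 were lower and 262 higher. The interval lay below 0 for 19 of 32 members, against 31.9% of measured genes, and above 0 for 4, against 13.4%. Among genes of at least 50 CPM it lay below 0 for 13 of 17 members, against 47.8%, and above 0 for 2, against 25.2%. The median log2 ratio was -0.26 over these members and -0.08 over all 10011 measured genes. Gapdh stood at 622 CPM in F592A macrophages and 867 CPM in WT macrophages, Pkm at 314 and 436 CPM, and Pgam1 at 215 and 298 CPM, with log2 ratios of -0.48, -0.48 and -0.47. These macrophage ratios were all smaller in size than those of the same 3 genes in stromal cells; the difference between cell types was not tested.

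The macrophage pattern differed from the stromal one in the HIF subunits and in the targets. Hif1a stood at 157 CPM in F592A macrophages and 225 CPM in WT macrophages, a log2 ratio of -0.52 (-0.58 to -0.46), where the stromal value was -0.08. It was lower in each of the 4 macrophage clusters with at least 50 cells in both libraries, by -0.47 in the cluster led by Il10 and C1q genes, -0.71 in the one with Folr2 and Cd163, -0.67 in the one with MHC class II genes and -0.60 in the one with Mmp12 and Gpnmb. Epas1, with few UMIs, stood at 3.63 CPM (80 UMIs) in F592A and 2.53 CPM (68 UMIs) in WT. Hk2 stood at 120 CPM in F592A and 96.8 CPM in WT, a log2 ratio of 0.31 (0.23 to 0.39), and Pfkfb3 at 51.9 and 43.2 CPM, a log2 ratio of 0.26 (0.14 to 0.38). Ankrd37, the 1 lower member, stood at 3.41 CPM (75 UMIs) in F592A and 6.26 CPM (168 UMIs) in WT, a log2 ratio of -0.88 (-1.29 to -0.48). Slc16a3 stood at 46.7 CPM in F592A and 59.9 CPM in WT, a log2 ratio of -0.36. Car9 was level at 2.63 and 2.68 CPM, and Higd1a was slightly higher at 108 CPM in F592A and 95.7 CPM in WT. Stromal markers in macrophages summed to 1057 CPM in F592A and 1276 CPM in WT, and erythroid markers to 33.7 and 68.6 CPM; their part in the result was not tested.

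In endothelial cells the later enzyme steps were lower in F592A, and Epas1 was higher in the class but not in every cluster. The 15 enzymes summed to 2516 CPM in F592A and 3142 CPM in WT, a log2 ratio of -0.32 (-0.35 to -0.29). Gapdh stood at 845 CPM in F592A endothelial cells and 1215 CPM in WT, Pgam1 at 118 and 165 CPM, and Pkm at 335 and 445 CPM. Ldha differed from its stromal pattern, at 315 CPM in F592A and 308 CPM in WT, within counting error. Epas1, the HIF subunit typical of endothelium, stood at 394 CPM in F592A and 322 CPM in WT, a log2 ratio of 0.29 (0.21 to 0.37). In the 3 endothelial clusters with at least 50 cells in both libraries its log2 ratio was -0.13 to 0.23, with a median of -0.03. The cluster led by Sema3g and Ptprb held 124 F592A and 65 WT cells, against 456 and 435 in the one led by Selp. The mix of endothelial cells thus differed between libraries. Hif1a was level, at 386 CPM in F592A and 370.3 CPM in WT. Ankrd37 stood at 19.8 CPM (185 UMIs) in F592A and 40.0 CPM (283 UMIs) in WT, a log2 ratio of -1.01 (-1.29 to -0.74). It was the 1 of 28 measured members at least 1.5-fold lower, against 8.73% of measured genes, and 0 were at least 1.5-fold higher, against 2.21%. Over all measured endothelial genes 758 were lower and 192 higher, and with TMM scaling 450 were lower and 312 higher. Other hypoxia targets ran the other way by small amounts: Ndrg1 at 349 CPM in F592A and 299 CPM in WT, Ddit4 at 105 and 91.4 CPM, and Kdm3a at 34.3 and 27.4 CPM. The median log2 ratio was 0.03 over the 28 measured members, against -0.10 over all genes measured there, and 13 of the 28 were below 0. In endothelial cells macrophage markers summed to 37.8 CPM in F592A and 70.5 CPM in WT, stromal markers to 1213 and 1656 CPM, erythroid markers to 9.64 and 41.1 CPM and cycling markers to 115 and 242 CPM; their part in the result was not tested.

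In mural cells the enzymes were lower by the smallest amount of the 4 large classes, at 2426 CPM in F592A and 2841 CPM in WT, a log2 ratio of -0.23 (-0.26 to -0.20). Of 30 measured members 1 was at least 1.5-fold lower, against 8.26% of measured genes, and 1 was at least 1.5-fold higher, against 4.24%. Over all measured mural genes 699 were lower and 359 higher, and with TMM scaling 458 were lower and 494 higher. The lower one was Pfkfb4, which lies at chr9:108991778-109032228 (GRCm38), with 9.84 CPM (74 UMIs) in F592A and 20.6 CPM (126 UMIs) in WT, a log2 ratio of -1.07 (-1.50 to -0.64). The higher one was Ndrg1, at chr15:66929318-66969640, with 55.7 CPM (419 UMIs) in F592A and 25.6 CPM (156 UMIs) in WT, a log2 ratio of 1.12 (0.86 to 1.40). Ndrg1 was higher in both mural clusters with at least 50 cells in each library, at 41.7 CPM in F592A and 25.5 CPM in WT in the one led by Rgs5 and Kcnj8, and at 106 and 51.3 CPM in the one led by Myh11. The Myh11 cluster held 155 F592A and 84 WT cells, against 436 and 486 in the Rgs5 cluster, so the mix of mural cells differed between libraries. Epas1 stood at 399.8 CPM in F592A and 332 CPM in WT, and Ddit4 at 139 and 107 CPM. The median log2 ratio was -0.06 over the 30 measured members, against -0.09 over all genes measured there, and 17 of the 30 were below 0. Over the 563 mural genes with a mean of at least 200 CPM, without mitochondrial and ribosomal protein genes, the median was -0.19. It was -0.09 over the 8 members among them. Erythroid markers in mural cells summed to 602 CPM in F592A and 127 CPM in WT, macrophage markers to 41.3 and 91.9 CPM and cycling markers to 199 and 404 CPM; their part was not tested.

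The cell type with the highest level differed from gene to gene. In 23 of the 35 genes the same cell type of the 8 had the highest CPM in both libraries, and in 7 its counting interval stood clear of the next type in both. The 7 were Slc2a1, Slc2a3, Slc16a3, Pkm, Pfkfb4, Hif1a and Higd1a. Slc2a3 was highest in neutrophils, at 267 CPM in F592A and 122 CPM in WT, and next mural cells, at 73.6 and 65.2 CPM, with macrophages lowest at 1.68 and 1.04 CPM. Slc16a3 was also highest in neutrophils, at 601 CPM in F592A and 446 CPM in WT. Pfkfb4 was highest in neutrophils, at 92.4 and 65.2 CPM, then in macrophages, at 29.8 and 32.3 CPM.

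The genes of both HIF alpha subunits were highest in vessel-wall cells. Epas1 was highest in mural cells and then endothelial cells in both libraries, without a clear gap between them, followed by lymphatic endothelial cells at 91.4 CPM in F592A and 41.1 CPM in WT, while stromal cells held 5.46 and 5.22 CPM. Hif1a was highest in endothelial cells and then stromal cells in both libraries, with each gap clear of counting error. Hk1 was highest in endothelial cells, at 64.9 CPM in F592A and 53.5 CPM in WT, without a clear gap to neutrophils. Hk2 was lowest in endothelial cells, at 2.68 CPM in F592A and 4.10 CPM in WT. Stromal cells held the most Hk2 in both libraries, although in WT the stromal value did not stand clear of that of macrophages. Ankrd37, Ndrg1 and Bnip3l were highest in endothelial cells in both libraries, Ddit4 in mural cells, and Bnip3, Egln1, Pdk1 and Higd1a in stromal cells. Egln3 was highest in T and NK cells, at 26.03 CPM (13 UMIs) in F592A and 32.1 CPM (12 UMIs) in WT, and then in lymphatic endothelium.

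**Figure D5:**
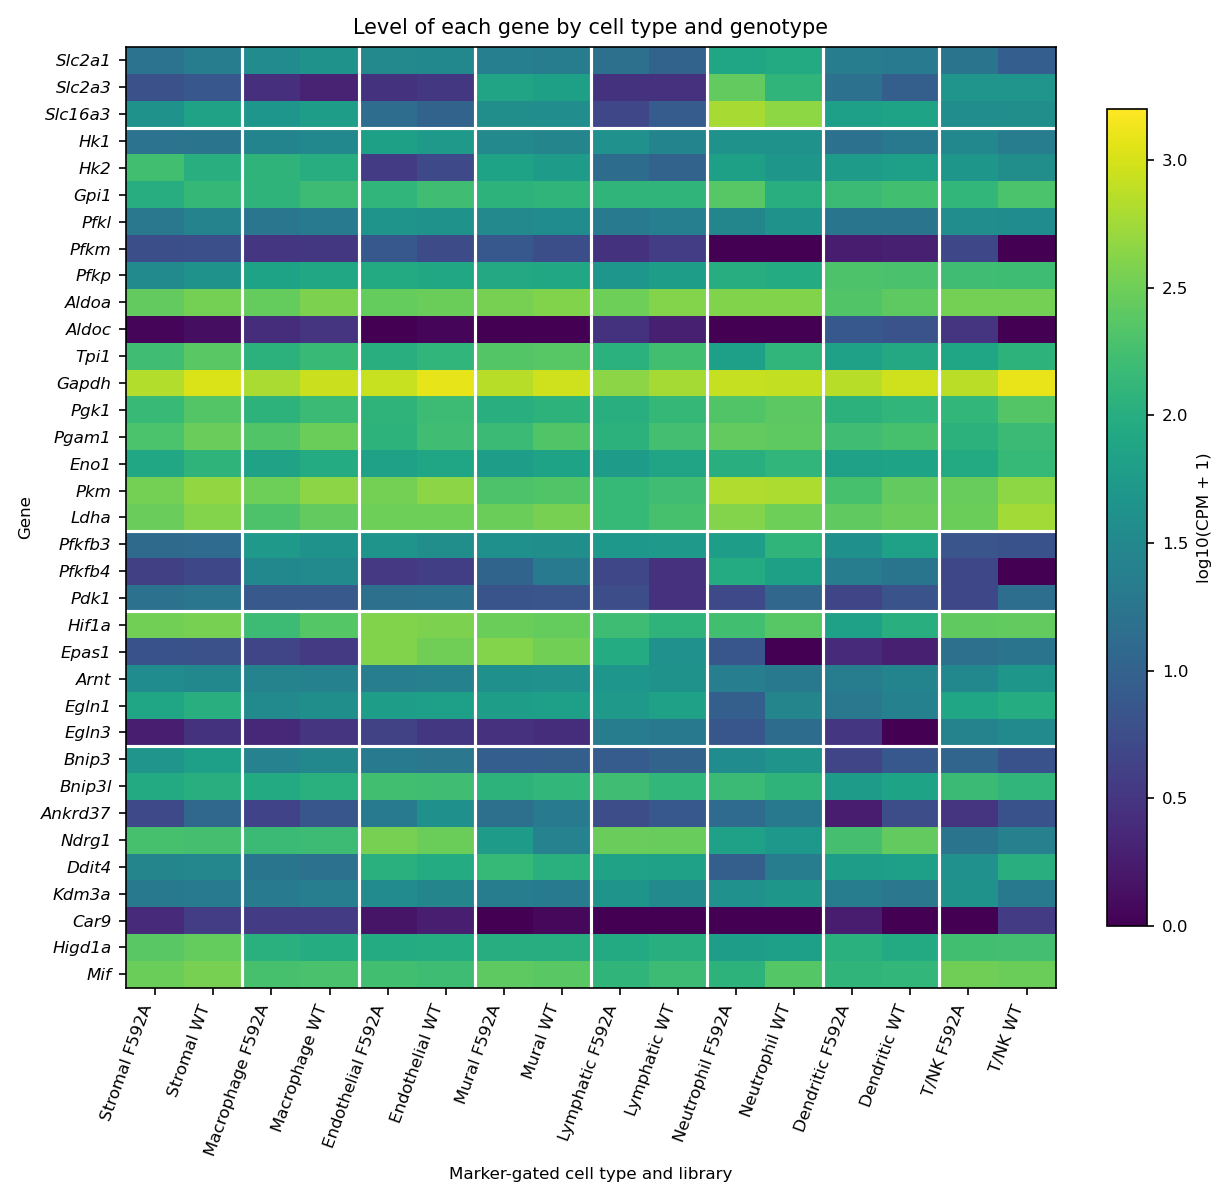
The colour gives log10(CPM + 1) of each gene (rows, by role) in 8 marker-gated cell types (columns), with F592A left of WT in each type. Epas1 is bright in endothelial and mural columns, Slc2a3 and Slc16a3 in neutrophil columns, and Hk2 is dark in endothelial columns.

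The small classes gave few measured members. Gated neutrophils were the 1 of the 8 classes whose enzyme sum was not lower in F592A. It was 3406 CPM in F592A and 3232 CPM in WT, a log2 ratio of 0.08 (-0.03 to 0.18). In the neutrophil cluster the sum had the other sign, at 2958 CPM in F592A and 3086 CPM in WT, a log2 ratio of -0.06 (-0.16 to 0.04). In T and NK cells 5 of 12 were at least 1.5-fold lower in F592A, against 18.9% of measured genes, and 0 were at least 1.5-fold higher, against 9.33%. They were Gpi1, Gapdh, Pgk1, Pkm and Ldha, the last with 298 CPM (149 UMIs) in F592A and 575 CPM (215 UMIs) in WT. In neutrophils Mif, at 117 CPM (57 UMIs) in F592A and 225 CPM (107 UMIs) in WT, was the 1 of 13 at least 1.5-fold lower, against 13.8%. Slc2a3 and Gpi1 were the 2 at least 1.5-fold higher, against 13.0%, but in the neutrophil cluster Gpi1 was lower in F592A. In dendritic cells 2 of 19 were at least 1.5-fold lower, Pfkfb3 and Hif1a, against 7.27%, and 0 were higher, against 4.81%. In lymphatic endothelium 2 of 19, Tpi1 and Pgam1, were at least 1.5-fold lower, against 14.4%, and Epas1 was the 1 higher, against 5.15%. Other markers moved with these classes. In T and NK cells cycling markers summed to 254 CPM in F592A and 564 CPM in WT, macrophage markers to 94.1 and 240.8 CPM and erythroid markers to 290.3 and 56.2 CPM. In lymphatic endothelium erythroid markers summed to 11.4 CPM in F592A and 400.9 CPM in WT, and cycling markers to 238 and 583 CPM. In neutrophils their own markers summed to 140196 CPM in F592A and 77344 CPM in WT. In dendritic cells stromal markers summed to 1312 CPM in F592A and 957 CPM in WT. Their part in the results was not tested. With so few measured members, 1 gene more or less moves these shares past the background in neutrophils, dendritic cells and lymphatic endothelium.

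A further 63 genes of the same pathways were read beside the members. Of 17 measured genes of glycolysis and pyruvate use in stromal cells, 0 were at least 1.5-fold lower in F592A, against 4.61%. None was at least 1.5-fold higher, against 3.37%, and the median log2 ratio was -0.13. Mpc1, a subunit of the mitochondrial pyruvate carrier, came close at 135 CPM in F592A and 196 CPM in WT, a log2 ratio of -0.54. It passed the fold in macrophages, as the 1 of 15 measured genes of that list against 4.02% of all genes measured there, at 164 CPM in F592A and 262 CPM in WT, and in endothelial cells, at 52.5 and 88.8 CPM. In endothelial cells Bpgm, a mutase of the bisphosphoglycerate shunt, also passed it, at 14.99 CPM in F592A and 28.7 CPM in WT, so that 2 of 9 were lower, against 8.73%. Of 37 measured hypoxia genes in stromal cells 3 were at least 1.5-fold lower, against 4.61% of all genes measured there, namely P4ha2, a collagen prolyl hydroxylase, at 56.3 CPM in F592A and 86.3 CPM in WT, Fam162a, a mitochondrial protein, at 111 and 173 CPM, and Ppp1r3c, a glycogen-targeting subunit, at 1.87 and 2.86 CPM. The 1 higher gene, against 3.37%, was Adm, the vasodilator adrenomedullin, at 20.5 CPM in F592A and 13.1 CPM in WT stromal cells, and it was the 1 of 27 lower in endothelial cells, against 8.73%, at 20.1 and 34.5 CPM. In macrophages 4 of 27 hypoxia genes were at least 1.5-fold lower, against 4.02%, and 0 higher, against 1.83%. Hilpda, a lipid-droplet protein, stood at 313 CPM in F592A macrophages and 487 CPM in WT, and Aqp1, a water channel, at 45.0 and 67.8 CPM. The collagen-modifying genes P4ha2, at 2.59 CPM in F592A and 4.58 CPM in WT, and Plod2, at 3.31 and 5.85 CPM, were the other two. In mural cells 2 of 29 were at least 1.5-fold lower, a share near the 8.26% of all genes measured there: Hilpda at 58.8 CPM in F592A and 127.6 CPM in WT, and Selenbp1, a selenium-binding protein, at 14.75 and 28.5 CPM.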

How the data were processed

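The deposited files hold raw UMI counts per gene and cell. Per the file headers they come from Cell Ranger 6.0.1. The submitters' processing notes list Cell Ranger 2.1.1, Seurat and mm10, and the version behind these counts is unsettled. Kept cells had 500 or more genes, 1000 or more UMIs and no more than 15% mitochondrial UMIs; Scrublet (scanpy 1.11.5) then removed 236 F592A and 383 WT doublets. A marker counted as on from 0.1 of its 99th percentile over cells. A class needed 3 markers on (2 for dendritic cells), and cells of more than 1 class were left out. These thresholds were set after the distributions of the markers, not of the members, had been seen. UMIs were summed per class and library. Intervals are exact 95% Poisson for CPM and exact conditional binomial for ratios. Leiden clusters used 2000 variable genes without the members. The ratio code was tested on simulated data. TMM and median-of-ratios factors came from edgeR 4.0.16. A second feature row named Aldoa, with 0 UMIs in F592A and 8 UMIs in WT stromal cells, was not used. Eno1b, a near copy of Eno1, has its own row, so the split of reads between them is uncertain. The genes named are the 35 members and the other pathway genes past 1.5-fold. Members, lists and comparisons were chosen with earlier results of these data known.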

Additional observations from a re-analysis of the deposited data

Results flagged for a closer look

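Gpi1, the isomerase at the start of glycolysis, went in opposite directions in 2 small classes. In neutrophils it stood at 236 CPM (115 UMIs) in F592A and 101 CPM (48 UMIs) in WT, a log2 ratio of 1.22. In T and NK cells it stood at 130 CPM (65 UMIs) in F592A and 198 CPM (74 UMIs) in WT, a log2 ratio of -0.61. It drew attention because the only library of each genotype differed by at least 1.5-fold one way in one cell type and the other way in another. The difference between the 2 cell types was not tested. Behind it stand 126 F592A and 182 WT neutrophils and 94 F592A and 78 WT T and NK cells. Among the clusters Gpi1 was measured in 22 and was lower in F592A in 21 of them. The neutrophil cluster, with 138 F592A and 243 WT cells, was 1 of the 21, so the higher value was that of the gated neutrophils only. The 1 cluster with higher Gpi1 was mural, at a log2 ratio of 0.23. Other markers differed as well: in neutrophils their own markers summed to 140196 CPM in F592A and 77344 CPM in WT, stromal markers to 2693 and 4488 CPM and macrophage markers to 320.2 and 656 CPM. In T and NK cells cycling markers summed to 254 CPM in F592A and 564 CPM in WT, and macrophage markers to 94.1 and 240.8 CPM. Their part in the result was not tested.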

How the results depend on the processing

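No paired analysis was possible because each genotype has 1 library. Leaving out a library was likewise not possible. Among member values by cell type, 1095 stayed within the counting interval of the reported value under an alternative, 280 moved outside it, and of values past 1.5-fold 1 changed sign, Egln3 in stromal cells thinned to 2000 UMIs (0.35); some smaller values changed sign too. One sign under every alternative was kept by 24 of 34 stromal, 25 of 32 macrophage, 18 of 28 endothelial and 21 of 30 mural members. Shares in brackets are of all genes measured in that class under that setting. The count of lower stromal members was 12 with at most 5% mitochondrial UMIs (5.25%) and 10 in adventitial-like cells alone (9.92%). At 2-fold, 2 stromal members were lower (1.17%) and 0 higher (0.852%). The lower macrophage count was 0 at 2-fold (0.609%), 0 thinned (3.54%) and 2 at a minimum of 20 UMIs (7.93%). The higher macrophage count was 1 with clusters (2.27%), the stricter gate (1.81%), TMM (2.62%), median of ratios (2.6%) or 20 UMIs (3.74%). The lower endothelial count was 2 with at most 5% mitochondrial UMIs (11.1%) or at 20 UMIs (12.9%), and 0 thinned (7.36%). The higher mural count was 2 with at most 5% mitochondrial UMIs (6.77%) and 0 thinned (4.67%). Thinning leaves fewer genes measured.

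The enzyme log2 ratio stayed below 0 under every alternative run. In stromal cells it was -0.52 with at most 5% mitochondrial UMIs, -0.45 without cycling cells, -0.38 under TMM, -0.39 under median of ratios, -0.47 without mitochondrial, ribosomal and haemoglobin genes in the total, and -0.44, -0.43 and -0.52 in tenocyte-like, fibrochondrocyte-like and adventitial-like cells alone. In macrophages it was -0.33 with clusters, -0.435 with at most 5% mitochondrial UMIs, -0.35 thinned, and -0.32 under TMM and median of ratios. In endothelial cells these were -0.38 (mitochondrial limit), -0.22 (both scalings) and -0.37 (total without the named genes). In mural cells they were -0.36, -0.14 and -0.27, and -0.19 without cycling cells. The cause was not tested. TMM shifted all log2 ratios by 0.08 to 0.10, and turned 639 lower and 466 higher stromal genes into 494 lower and 581 higher, with Gapdh no longer past 1.5-fold. Leaving out shared barcodes, an alternative chosen after seeing the data, changed no count of members in the 4 large classes.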

Other observations

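A cluster of 20 F592A and 26 WT cells, chosen after its values were seen, was led by Saa3, Arg1, Nos2 and Slpi and stayed unnamed, with a median of 1259 UMIs per cell. Both libraries are pooled here, so no genotype is compared, and the values are set beside those of the gated macrophages of both libraries together. Pgk1 stood at 869 CPM (58 UMIs) against 136 CPM in macrophages, Ldha at 1348 CPM (90 UMIs) against 236 CPM, and Tpi1 at 764 CPM (51 UMIs) against 133 CPM. Slc16a3, the lactate exporter, stood at 269.7 CPM (18 UMIs) against 54.0 CPM, and Hif1a at 644 CPM (43 UMIs) against 194.5 CPM. Egln3 stood at 89.9 CPM from 6 UMIs (exact 95% interval 33.0 to 195.6) against 1.74 CPM. Hk2 stood at 74.9 CPM from 5 UMIs (24.3 to 174.8) against 107 CPM, and that interval includes the macrophage value. Ndrg1, a hypoxia target, was lower, at 59.9 CPM from 4 UMIs (16.3 to 153.4) against 154.2 CPM. Egln1 and Pfkp also had lower values, with intervals that include the macrophage value. Slc2a3, Pfkm, Aldoc, Pfkfb4, Pdk1 and Epas1 had 0 UMIs in the cluster. Their intervals reach 55.3 CPM and include the macrophage values, of which Pfkfb4 had the largest at 31.2 CPM. The members were not used to form the cluster.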
